A study of Mus musculus with 52 samples.

Results

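The promoters of 8 transcription factors that set neural fate, Sox1, Pax6, Pax3, Neurog1, Neurog2, Olig2, Nkx2-2 and Zic1, were followed in mouse embryonic stem cells (mESCs) by calibrated ATAC-seq (cATAC-seq). They were picked by gene symbol for the known role of each factor, with earlier results of these data known. All 8 genes had at least 1 promoter interval. Pax6 had 2, so the set is 9 intervals of 400 bp among 20633 in the tables. ATAC-seq reads DNA that the Tn5 transposase can reach, and the unit here is the calibrated read: mouse reads over the interval divided by a size factor from Drosophila spike-in cells added to each sample.

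Mouse ESCs grown in serum and leukaemia inhibitory factor, from 4 conditional lines with a Rosa26 CreERT2 allele, were left untreated or given 800 nM 4-hydroxytamoxifen for 96 hours. In Kdm2a/b-JmjC fl/fl cells, derived from mice, tamoxifen removes JmjC domain exons of Kdm2a and Kdm2b and with them the long, demethylase-containing forms of both proteins, while the short forms stay. In Kdm2a-CXXC fl/fl cells it removes the zinc finger CxxC domain of KDM2A, the part that binds unmethylated CpG dinucleotides. It removes that of KDM2B in Kdm2b-CXXC fl/fl cells, and of both proteins in the Kdm2a/b-CXXC fl/fl line. Each group held 3 ATAC libraries, except the Kdm2a/b-CXXC groups with 4, giving 26 libraries with 1.49 to 3.03 M promoter reads each (M, 1000000 reads). The Kdm2a/b-CXXC line was made by genome editing of Kdm2b-CXXC cells. Each line was compared with its own untreated cells, promoter reads hold no measure of the deleted exons, and no CreERT2 line without floxed alleles is among these samples, so an effect of the drug or of Cre cannot be told apart from that of the deletion. In the untreated cells the 10 promoter intervals found for 9 mESC marker genes had a median percentile of 70.7 among all promoters, against 43.7 for 8 intervals of neuronal genes. The lists overlapped, with mESC intervals from 16.7 to 92.7 and neuronal ones from 8.58 to 72.7. Accessibility is not expression, and in bulk libraries a few cells with an open promoter cannot be told apart from a less open promoter in all cells.

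In an embryonic stem cell these genes are mostly silent but poised: their CpG island promoters are classical targets of Polycomb repressive complexes, and differentiation cues later open each one in its own part of the neural tube. Sox1 marks the first neuroectoderm, Pax6, Olig2 and Nkx2-2 divide the ventral neural tube, Pax3 and Zic1 belong to its dorsal side, and Neurog1 and Neurog2 are proneural factors that push progenitors to become neurons. KDM2B brings a variant Polycomb repressive complex to CpG islands, which is why the loss of CpG binding by KDM2 proteins is of interest at such genes.

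All 9 intervals were CpG-rich, meaning at least 50% G and C and a CpG ratio, observed over expected, of 0.6 or more, as were 54.6% of all 20630 intervals with a sequence. Within that class they were not dense. Their median was 26 CpGs per interval, beside 37 for CpG-rich promoters and 24 for all promoters. Sox1 was the densest with 51, more than 91.1% of all intervals, followed by Neurog1 with 38 and Zic1 with 32. Nkx2-2 with 27, Neurog2 and Olig2 with 26 each, Pax6 with 24 and 21, and Pax3 with 23 lay near the median of all promoters.

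The positions below are those of the deposited intervals in mm10. Sox1 (NM_009233) lies at chr8:12395319-12395718 on the plus strand, with 200 bases before the annotated start site and 200 bases of 5′ UTR. Olig2 (NM_016967), at chr16:91225350-91225749 on the plus strand, covers 200 bases before the start, 104 of 5′ UTR and 96 of the first intron. The upstream Pax6 promoter (NM_001244198) is at chr2:105668696-105669095 on the plus strand, with 200 bases before the start, 154 of 5′ UTR and 46 of intron. The downstream Pax6 promoter (NM_001244200), at chr2:105675313-105675712, lies within an intron of that upstream transcript, and its interval ends 32 bp before the start site annotated in the reference used here. Pax3 (NM_001159520) is at chr1:78196937-78197336 on the minus strand, Neurog1 (NM_010896) at chr13:56251964-56252363 on the minus strand and Neurog2 (NM_009718) at chr3:127632945-127633344 on the plus strand. Nkx2-2 (NM_010919) is at chr2:147186203-147186602 and Zic1 (NM_009573) at chr9:91365600-91365999, both on the minus strand. No interval held coding bases. The closest other interval of the tables was 622 bp from Nkx2-2, at 6430503K07Rik, and 1036 bp from the upstream Pax6 promoter, at Pax6os1.

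Of the 7 intervals with a promoter entry in RefSeq (GRCm38.p6, the build of mm10), 4 are shown by the 200 bases before the start site, because they span the set from its most to its less accessible promoters and hold no annotated exon. Each is written on the strand of its gene, 5′ to 3′, with every CG dinucleotide in capitals, and 183 of the 200 Neurog1 bases lie in the measured interval.
Sox1: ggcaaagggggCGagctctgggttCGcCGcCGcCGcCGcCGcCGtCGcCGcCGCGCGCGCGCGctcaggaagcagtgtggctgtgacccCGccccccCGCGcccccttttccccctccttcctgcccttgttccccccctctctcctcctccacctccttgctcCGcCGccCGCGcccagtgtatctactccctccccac
Olig2: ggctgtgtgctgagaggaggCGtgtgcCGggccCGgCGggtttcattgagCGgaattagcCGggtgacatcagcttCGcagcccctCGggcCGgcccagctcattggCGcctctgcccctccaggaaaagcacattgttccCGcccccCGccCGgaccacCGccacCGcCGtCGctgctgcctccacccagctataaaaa
Neurog1: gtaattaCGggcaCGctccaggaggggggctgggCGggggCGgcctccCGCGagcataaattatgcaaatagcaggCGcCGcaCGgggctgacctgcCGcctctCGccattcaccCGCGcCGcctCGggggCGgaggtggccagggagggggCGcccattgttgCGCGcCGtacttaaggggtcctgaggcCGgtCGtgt
Pax6 upstream: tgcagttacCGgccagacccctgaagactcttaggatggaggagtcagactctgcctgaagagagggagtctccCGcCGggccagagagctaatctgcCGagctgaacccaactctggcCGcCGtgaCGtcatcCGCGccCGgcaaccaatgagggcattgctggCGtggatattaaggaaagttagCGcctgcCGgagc
Sox1 carried 23 CpGs in this stretch, Neurog1 22, Olig2 17 and the upstream Pax6 promoter 13. The letters ATTGTT, the core recognised by SOX proteins, were searched on both strands of each 400 bp interval. They occurred in Olig2, 67 to 62 bases before the start, in Neurog1, 43 to 38 bases before it, and in Neurog2, 45 to 40 bases before it. Of all intervals 8.62% held them, and of CpG-rich intervals 3.92%. TATAAA, also searched on both strands, occurred in Olig2 alone among the 9, 8 to 3 bases before the start. Of all intervals 10.4% held it, and of CpG-rich intervals 4.54%. The E-box CANNTG, which bHLH factors such as the neurogenins and OLIG2 read, occurred in 6 of the 9. It was found in 76.2% of all intervals and in 67.3% of CpG-rich ones. CAGCTG, which overlaps CANNTG, occurred in Pax3 alone among the 9, in 22.9% of all intervals and in 19.4% of CpG-rich ones.

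The first question was how open these promoters are before KDM2 proteins are disturbed. In untreated cells the 9 ranked between the extremes of the genome's promoters, with Neurog2 and Nkx2-2 in the lower part. Their mean percentiles over 13 untreated libraries ran from 67.5 for Olig2 and 67.2 for Sox1, through 60.8 for the downstream Pax6 promoter, 58.4 for Neurog1 and 57.3 for Pax3, to 47.2 for Zic1, 45.5 for the upstream Pax6 promoter, 36.9 for Neurog2 and 30.6 for Nkx2-2. Ranked against CpG-rich promoters alone the same intervals were low. Olig2 stood at the 45.2 percentile there, Zic1 at 15.9, Neurog2 at 5.02 and Nkx2-2 at 1.70.

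As a reference for closed chromatin, 505 promoters of olfactory and vomeronasal receptors, which are silent outside sensory neurons, had a median percentile of 8.23. The promoters of Sox1, Pax6, Pax3, Neurog1, Olig2 and Zic1 ranked above all 505. Neurog2 was matched or passed by 1 of them and Nkx2-2 by 2. Of the 505 receptor promoters 0 were CpG-rich, whereas every neural factor promoter was. The highest receptor promoter stood at the 38.8 percentile, and all CpG-rich promoters had a median percentile of 70.6. A rank above the receptors is thus shared with most CpG-rich promoters and does not set the neural factors apart. The part of CpG class in this ranking was not tested. At the other end, 11 promoter intervals of broadly expressed genes had a median percentile of 77.9. A wider list of 60 other neural developmental regulators, of which 59 had an interval and 64 intervals were found, had a median percentile of 47.1. Of these 64 intervals 45 were CpG-rich.

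**Figure D1:**
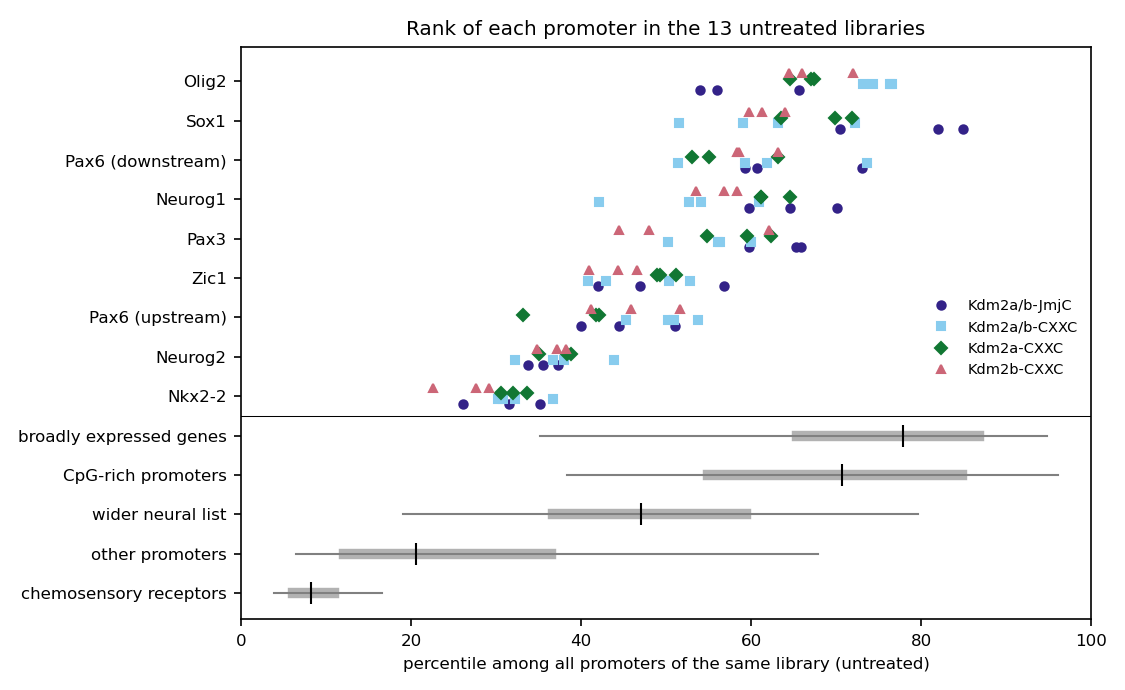
Horizontal axis, percentile of the promoter among all promoters of the same library. Upper rows, each neural factor promoter with 1 point per untreated library (13 in all), coloured by line. Lower rows, reference sets, with the median over promoters as a tick, the 25th to 75th percentile as a thick bar and the 5th to 95th as a thin line. Olig2 and Sox1 averaged 67.5 and 67.2, Nkx2-2 averaged 30.6, and the chemosensory receptors had a median of 8.23.

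All intervals are of equal length, but levels were not corrected for the sequence preference of Tn5 or for mappability, whose part in the order was not tested. On the log2(calibrated reads + 1) scale, neighbours in the order were compared within each untreated library by an exact two-sided sign-flip permutation test, with p-values adjusted over the 8 neighbouring pairs. Pax3 exceeded Zic1 in 13 of 13 libraries, by 0.49 ± 0.30 (SD, n = 13, adjusted p = 0.0020 by the exact test). The upstream Pax6 promoter exceeded Neurog2 in 12 of 13 libraries, by 0.59 ± 0.48 (SD, adjusted p = 0.0046, same exact test), and Neurog2 exceeded Nkx2-2 in 11 of 13, by 0.64 ± 0.46 (SD, adjusted p = 0.0039, same exact test). Steps past the threshold thus lay between Pax3 and Zic1, between upstream Pax6 and Neurog2, and between Neurog2 and Nkx2-2. The order was taken from the same libraries and only neighbours were compared, so the tests do not define groups of equal level. The other 5 neighbouring pairs did not differ beyond their spread, with adjusted p between 0.108 and 0.990 by the exact test. Libraries of a line are not independent of each other in genotype, and the 3 differences had the same sign in the mean of each of the 4 lines.

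The same pairs were compared in the 13 tamoxifen libraries, which pool the deletions of the 4 lines, and the steps past the threshold were partly other ones. The difference between Neurog2 and Nkx2-2 was 0.10 ± 0.50 (SD, n = 13, adjusted p = 0.577, exact test), while Zic1 exceeded the upstream Pax6 promoter by 0.46 ± 0.45 (SD, adjusted p = 0.020, exact test) and the downstream Pax6 promoter exceeded Neurog1 by 0.29 ± 0.41 (SD, adjusted p = 0.045, exact test). Pax3 over Zic1 and upstream Pax6 over Neurog2 stayed past the threshold, at 0.32 (adjusted p = 0.020) and 0.72 (adjusted p = 0.0039) by the exact test. In line means, downstream Pax6 exceeded Neurog1 in 2 of the 4 lines and Pax3 exceeded Zic1 in 3. Zic1 over upstream Pax6 and upstream Pax6 over Neurog2 held in all 4. Whether a step differed between untreated and treated libraries was not tested. Between CpG number and untreated level over the 9 intervals, Spearman's rho was 0.075 and Pearson's r 0.31, given as a description. With 26 or 27 CpGs each, Olig2 stood at the top of the order and Neurog2 and Nkx2-2 at its bottom.

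The second question was whether deletion of the JmjC or CxxC domains altered accessibility at these promoters. It was not detectable at any of them. None of the 9 met the call, an adjusted p under 0.05 together with more than 1.4-fold change, in any of the 4 lines by limma or edgeR, or by DESeq2 in the 3 CXXC lines. In Kdm2a/b-JmjC DESeq2 gave none of the 9 an adjusted p. In that line 0.0757% of 17174 promoters tested passed, and in the other 3 lines 0%. In those, DESeq2 and edgeR also called 0, and limma gave an unadjusted p under 0.05 at 764 promoters for Kdm2a/b-CXXC, 1488 for Kdm2a-CXXC and 120 for Kdm2b-CXXC. Without adjustment, limma p-values under 0.05 were found in Kdm2a/b-JmjC at 2 of the 9, Neurog1 and downstream Pax6, both lower, where 20.3% of all promoters were lower at that level. Kdm2a/b-CXXC had 3 of 9, Sox1, downstream Pax6 and Zic1, all higher, beside 3.58% of all promoters. That count was 2 by DESeq2, by edgeR and with a replicate block. It was 3 with pseudocounts of 0.5 and 5, without the filter and without tamoxifen replicate 4. With TMM or median-of-ratios scaling it was 3, with 1 lower, beside 779 higher and 815 lower of 16413 promoters with TMM. It was 1 when replicate 1 or 2 of the untreated or replicate 2 of the tamoxifen libraries was left out. Without untreated replicate 4 or tamoxifen replicate 3 it was 2. Without untreated replicate 3 it was 2, with 1 lower. Without tamoxifen replicate 1 it was 0, with 1 lower. Kdm2a-CXXC had 1, Sox1, lower, beside 8%, and Kdm2b-CXXC had 0, beside 0.519% higher. Groups of libraries that did not overlap were found at 0 of the 9 in Kdm2a/b-JmjC, where every treated library was below every untreated one at 23.2% of all promoters, and at 0 in Kdm2a/b-CXXC, where treated were above untreated at 1.8%. All 9 intervals passed the filter on low values and were tested in each line.

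The intervals of the differences show what sizes remain possible. In Kdm2a/b-JmjC and Kdm2a-CXXC all 9 of the 95% intervals lay within 2-fold either way, in Kdm2a/b-CXXC 8 did and in Kdm2b-CXXC 4 did. The median half-width on the log2 scale was 0.37 for Kdm2a/b-JmjC, 0.42 for Kdm2a/b-CXXC and Kdm2a-CXXC, and 0.72 for Kdm2b-CXXC. Kdm2b-CXXC was the least precise line: its calibrated promoter totals ran from 1.75 to 2.96 M in untreated and from 1.98 to 3.19 M in tamoxifen libraries, and with 200 promoters given a planted 2-fold change in simulated libraries of that line the test recovered 11%, beside 64.5% to 78.5% in the other 3. The half-width and the recovery are those of the fit without a replicate block, which would pair libraries of the same number. With the block, limma called 0 of the 9 there and 5 of 17930 promoters. At an unadjusted p under 0.05 it found 4 of the 9 higher, beside 1594 of 17930 promoters. A lack of calls by the unpaired fit of Kdm2b-CXXC therefore says little.

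**Figure D2:**
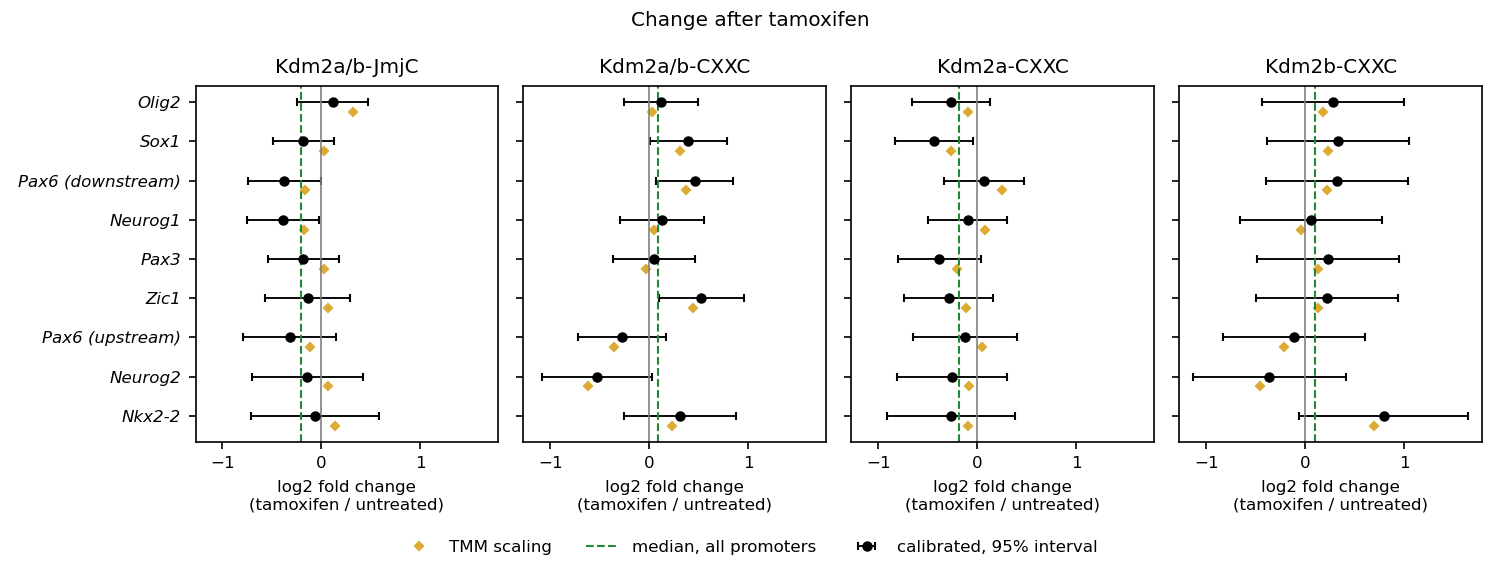
Horizontal axis, log2 fold change of calibrated reads after tamoxifen in each of the 4 lines. Rows, the 9 promoters in order of untreated level. Circles, limma estimates with 95% intervals. Diamonds, estimates with TMM scaling. Dashed line, median of all promoters tested. No promoter passed the adjusted threshold, and the widest intervals are those of Kdm2b-CXXC, with a median half-width of 0.72.

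The median shift of the 9 promoters was set beside that of all promoters in each line. The median log2 fold change in Kdm2a/b-JmjC was -0.18, beside -0.21 for all promoters tested. For Kdm2a/b-CXXC the pair of medians was 0.13 and 0.087, for Kdm2a-CXXC -0.27 and -0.18, and for Kdm2b-CXXC 0.23 and 0.099. The median of all promoters was below 0, and that of the 9 above it, in Kdm2a/b-CXXC without tamoxifen replicate 1 (-0.022 and 0.084) and in Kdm2b-CXXC without tamoxifen replicate 1 (-0.11 and 0.11) or untreated replicate 2 (-0.070 and 0.076). In Kdm2a/b-JmjC 8 of the 9 estimates were below 0, as were 83.4% of all promoters, and in Kdm2a-CXXC 8 of 9, beside 81.2%. In Kdm2a/b-CXXC 7 of 9 were above 0, beside 68%, and in Kdm2b-CXXC 7 of 9, beside 71.1%. TMM scaling, which sets the bulk of promoters to no change, moved the median of all promoters in Kdm2a/b-JmjC from -0.21 to -0.0027 and the median of the 9 to 0.027, with 3 of the 9 below 0. In Kdm2a-CXXC it moved the median of the 9 from -0.27 to -0.089, with 6 of the 9 below 0. In Kdm2a/b-CXXC the median of the 9 went from 0.13 to 0.045 and in Kdm2b-CXXC from 0.23 to 0.13. The signs of single promoters below therefore depend on the scale where the estimate is small.

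Nkx2-2, the homeodomain factor of the most ventral neural progenitors, had the lowest level and the largest estimate. In Kdm2b-CXXC its calibrated reads were 19.6, 17.7 and 24.6 in untreated and 41.8, 35.5 and 31.8 in tamoxifen libraries, so that every treated library lay above every untreated one, as at 2.13% of all promoters. The log2 fold change was 0.79 ± 0.44 (SE, 95% interval -0.059 to 1.65, adjusted p = 1 by limma), and 0.70 with TMM scaling (adjusted p = 0.573 by limma). In the other lines its groups overlapped. Untreated and tamoxifen values were 18.1, 35.4 and 25.7 against 18.1, 26.6 and 29.7 in Kdm2a/b-JmjC, and 29.6, 25.9 and 31.4 against 21.8, 22.3 and 27.9 in Kdm2a-CXXC. In Kdm2a/b-CXXC, where the same KDM2B domain is lost together with that of KDM2A, they were 20.7, 22.9, 25.3 and 32.0 against 50.7, 28.9, 33.3 and 19.3, with a log2 fold change of 0.31 (95% interval -0.25 to 0.88).

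Sox1, an HMG-box factor of early neuroectoderm, had estimates of opposite sign in different lines, none past adjustment. In Kdm2a/b-CXXC the untreated libraries held 78.0, 92.7, 66.5 and 105.5 calibrated reads and the treated ones 132.9, 115.4, 104.7 and 94.7, which gives a log2 fold change of 0.39 ± 0.20 (SE, adjusted p = 0.996 by limma). In Kdm2a-CXXC they held 120.4, 155.3 and 175.3 against 81.9, 116.1 and 137.1, or a log2 fold change of -0.44 ± 0.20 (SE, adjusted p = 0.581 by limma). The groups overlapped in both lines. In Kdm2b-CXXC the estimate was 0.33 (95% interval -0.39 to 1.05) and in Kdm2a/b-JmjC -0.18 (95% interval -0.49 to 0.12), the latter at 0.025 with TMM scaling.

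Zic1, a zinc finger factor of the dorsal neural tube, had its highest estimate in Kdm2a/b-CXXC. Values there were 45.4, 43.8, 69.3 and 60.0 in untreated and 111.5, 77.2, 73.4 and 57.8 in tamoxifen libraries, with 3 of the 4 treated libraries above all untreated ones. The log2 fold change was 0.53 ± 0.22 (SE, adjusted p = 0.996 by limma). In the single CxxC lines it was -0.29 for Kdm2a-CXXC and 0.22 for Kdm2b-CXXC, with intervals that include 0. Pax3, the paired-domain factor of the dorsal neural tube and neural crest, had 116.6, 116.5 and 106.4 calibrated reads in untreated and 78.5, 78.4 and 105.3 in tamoxifen-treated Kdm2a-CXXC cells. All treated libraries were below all untreated ones there, as at 13.4% of all promoters, with a log2 fold change of -0.38 ± 0.21 (SE, adjusted p = 0.596 by limma). In the other lines the Pax3 estimates were between -0.18 and 0.23, and their groups overlapped.

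The proneural genes differed in level. Neurog1 had 120.8, 112.4 and 94.4 calibrated reads in untreated and 96.1, 64.2 and 92.1 in treated Kdm2a/b-JmjC libraries, which gives a log2 fold change of -0.39 ± 0.19 (SE, adjusted p = 0.217 by limma). An unadjusted p under 0.05 with a lower value was common in that line, at 20.3% of all promoters. Neurog2 was lower than Neurog1 in every library. In Kdm2a/b-CXXC it had 47.4, 37.9, 25.3 and 32.0 against 28.1, 27.2, 22.5 and 18.5 calibrated reads, or a log2 fold change of -0.53 ± 0.28 (SE, adjusted p = 0.996 by limma), and with TMM scaling -0.62 (adjusted p = 0.369 by limma). Neurog2 estimates were below 0 in all 4 lines on the calibrated scale, and at 0.063 in Kdm2a/b-JmjC with TMM scaling.

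Olig2, the bHLH factor of motor neuron and oligodendrocyte progenitors, held the highest value of any of the 9 promoters, 281.3 in tamoxifen replicate 1 of Kdm2b-CXXC, beside 127.2 and 152.7 in the other treated and 185.6, 126.8 and 129.1 in the untreated libraries of that line. Without that library the estimate in Kdm2b-CXXC was -0.055, beside 0.28 with it. Its estimate was 0.11 for Kdm2a/b-JmjC and for Kdm2a/b-CXXC, and -0.27 for Kdm2a-CXXC, with intervals that include 0.

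**Figure D3:**
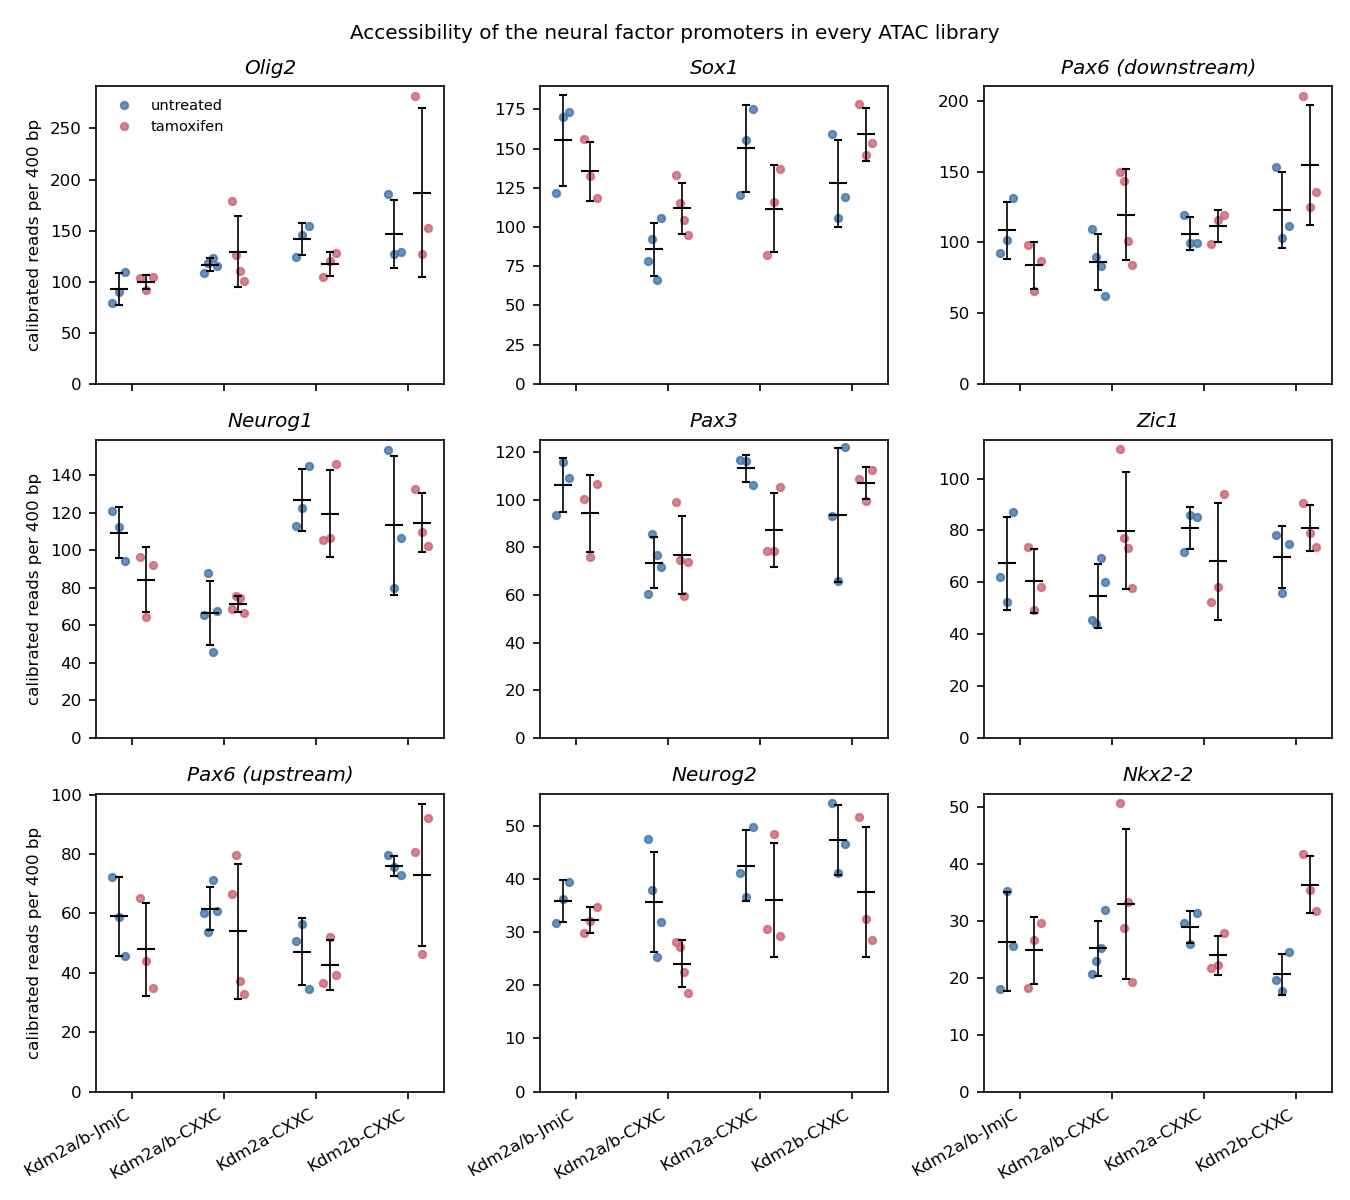
Vertical axes, calibrated reads per 400 bp interval, each panel starting at 0 with its own scale. Horizontal axes, the 4 lines. Points, single untreated (blue) or tamoxifen (red) libraries. Bars, mean and SD of 3 or 4 libraries. Untreated and treated points overlap in every panel and line except Nkx2-2 in Kdm2b-CXXC, treated above, and Pax3 in Kdm2a-CXXC, treated below.

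The Pax6 promoters were the one case in which a gene was measured at more than 1 start site. The downstream promoter, in the intron, was the more accessible in all 26 libraries, by a log2 ratio between 0.022 and 1.58 with a median of 0.90. The Pax6 ratio was examined after its values were seen. It needs no calibration, since both promoters are read in the same library. In Kdm2a/b-CXXC the untreated downstream promoter had 109.6, 89.7, 83.4 and 62.0 calibrated reads and the treated one 149.8, 143.4, 100.7 and 84.3, which gives a log2 fold change of 0.46 ± 0.20 (SE, adjusted p = 0.996 by limma). The upstream promoter of the same libraries had 60.2, 53.8, 71.2 and 61.0 in untreated and 66.4, 79.8, 37.2 and 32.9 in treated cells, with an estimate of -0.27 (95% interval -0.72 to 0.17). The log2 ratio thus went from 0.46 ± 0.40 (SD, n = 4) to 1.19 ± 0.26 (SD, n = 4), a difference of 0.73 (exact two-sided permutation p = 0.0571, where 0.0286 is the smallest possible; adjusted over 4 lines p = 0.229). In Kdm2a/b-JmjC the ratio differed by -0.056 (exact permutation p = 1), in Kdm2a-CXXC by 0.19 (exact permutation p = 0.6) and in Kdm2b-CXXC by 0.43 (exact permutation p = 0.3), and 3 libraries against 3 cannot go below p = 0.1. In Kdm2a/b-JmjC the downstream promoter had 92.6, 101.5 and 131.1 against 98.2, 65.8 and 87.0 calibrated reads, or a log2 fold change of -0.37 ± 0.19 (SE, adjusted p = 0.235 by limma).

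**Figure D4:**
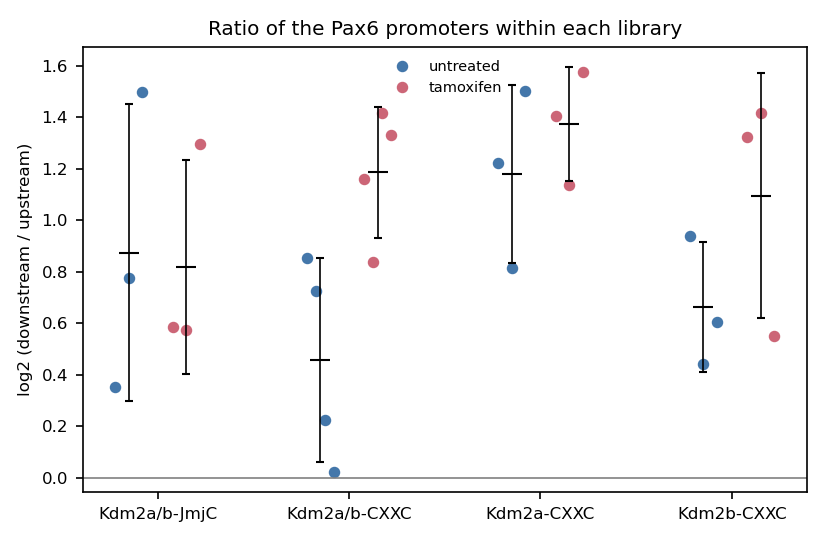
Vertical axis, log2 ratio of the downstream over the upstream Pax6 promoter, each as calibrated reads + 1, within a library. Horizontal axis, the 4 lines. Points, single untreated (blue) or tamoxifen (red) libraries. Bars, mean and SD. All 26 libraries lie above 0, from 0.022 to 1.58, and the Kdm2a/b-CXXC means are 0.46 untreated and 1.19 treated.

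The third question was whether the response differed between deletions. All 26 libraries were fitted together and the fold changes of a pair of lines subtracted, over 19621 promoters, of which 0% were called by limma in either contrast, with 1488 and 713 at an unadjusted p under 0.05. Between the CxxC and the JmjC double lines (Kdm2a/b-CXXC minus Kdm2a/b-JmjC) the largest difference among the 9 was that of the downstream Pax6 promoter, 0.83 ± 0.32 on the log2 scale (SE, adjusted p = 0.656 by limma), and 0.54 with TMM scaling (adjusted p = 0.506 by limma). It was the only 1 of the 9 with an unadjusted p under 0.05 and a higher fold change, as were 7.23% of all promoters. The difference was above 0 at 8 of the 9, and at 81.1% of all promoters.

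Between the single lines (Kdm2b-CXXC minus Kdm2a-CXXC), Nkx2-2 differed by 1.06 ± 0.51 (SE, adjusted p = 0.856 by limma) and Sox1 by 0.77 ± 0.34 (SE, adjusted p = 0.856 by limma). These 2 of 9 had an unadjusted p under 0.05 and a higher fold change, beside 3.44% of all promoters. The joint fit gave each promoter 1 spread for all lines. In the fits of single lines the SE in Kdm2b-CXXC and Kdm2a-CXXC was 0.37 and 0.20 for Sox1, and 0.43 and 0.33 for Nkx2-2. A contrast with separate spreads was not run. At 8 of the 9 the difference was above 0, beside 82.3% of all promoters. With TMM scaling it was 0.78 for Nkx2-2 (adjusted p = 1 by limma) and 0.48 for Sox1 (adjusted p = 1 by limma).

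Levels also differed between lines before treatment, and for some promoters the whole chromosome did too. Here each library's reads were scaled to its own promoter total, since calibration was made line by line, and a line was set against the mean of the other 3. Sox1 in Kdm2a/b-JmjC stood 0.50 higher on the log2 scale in untreated and 0.44 higher in treated libraries, and the median of 916 other promoters of chromosome 8 stood 0.36 and 0.32 higher. Pax3 in the same line stood 0.32 and 0.39 higher, and the median of 1017 other promoters of chromosome 1 stood 0.37 and 0.39 higher. For Neurog2 in Kdm2a-CXXC the chromosome 3 median was 0.25 and 0.24 higher, whereas Neurog2 itself stood at -0.20 and 0.06. Sox1 in Kdm2a-CXXC stood at 0.0024 untreated and -0.44 treated, beside chromosome 8 medians of -0.26 and -0.25. Pax3 in Kdm2a/b-CXXC stood at -0.016 and -0.049, beside chromosome 1 medians of -0.22 and -0.25. The part of such chromosome-wide differences in the levels of single promoters was not tested, and the chromosome medians given here were close in untreated and treated cells.

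Other differences between lines came with chromosome medians near 0. Untreated Olig2 was 0.42 lower in Kdm2a/b-JmjC, at 79.1, 89.7 and 110.0 calibrated reads, and 0.39 higher in Kdm2a/b-CXXC, at 108.6, 118.6, 123.7 and 115.2, with chromosome 16 medians of -0.041 and 0.0057. The upstream Pax6 promoter was 0.52 higher in untreated Kdm2a/b-CXXC and lower in untreated Kdm2a-CXXC, where its shift was -0.79, with chromosome 2 medians of 0.040 and -0.047. Untreated Nkx2-2 was lowest in Kdm2b-CXXC, at a shift of -0.57 that was 0.0050 in treated cells, on the same chromosome. These differences between lines are given as values, with no test.

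**Figure D5:**
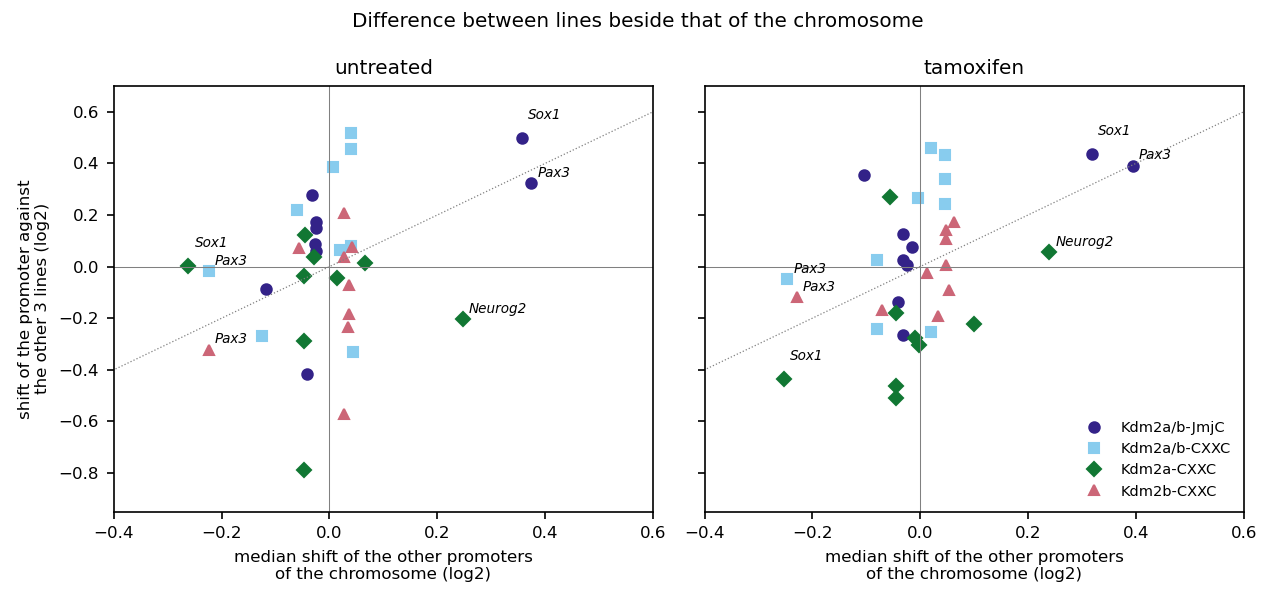
Vertical axis, log2 difference of a promoter in a line from the mean of the other 3 lines, on reads scaled to each library's promoter total. Horizontal axis, the median of the same difference over other promoters of its chromosome. Left, untreated, right, tamoxifen libraries. Symbols, lines. Dotted line, equality. Sox1 at 0.50 and Pax3 at 0.32 in untreated Kdm2a/b-JmjC lie near the line, with chromosome medians of 0.36 and 0.37.

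Across all 26 libraries the 9 promoters did not vary as a block. With TMM-scaled log2 values centred on the mean of each line, correlations between pairs of the 9 ran from -0.56, for Neurog2 with Zic1, to 0.42, for Sox1 with Zic1, with a median of 0.04; the points share lines and depth, and the values are a description. The spread among untreated replicates exceeded counting error at 27 of the 36 pairs of promoter and line. The median coefficient of variation of the 9 among untreated replicates was 18.6% for Kdm2a/b-JmjC and 19.8% for Kdm2a/b-CXXC, where counting alone gives 10.2% and 12.1%. For Kdm2a-CXXC it was 11.2% and for Kdm2b-CXXC 21.7%, where counting alone gives 9.21% and 9.79%. The promoters most like the mean profile of the 9, among 16021 compared over 26 libraries, were Dlx4os (r = 0.77), Rpl7l1 (r = 0.65) and Usp45 (r = 0.65).

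No interval of the marker lists for mESCs, primitive endoderm, mesoderm, trophoblast, neurons or fibroblasts was called in any line by limma on the calibrated scale. In Kdm2a/b-CXXC 2 of 9 mESC markers were lower with an unadjusted p under 0.05, beside 1.07% of all promoters. With TMM scaling 4 of 9 were lower there, beside 815 of 16413 promoters, and 4 of 10 in Kdm2b-CXXC, beside 742 of 17930. Their part in the values of the 9 promoters was not tested. The wider neural list was read in the same way. None of its tested intervals was called in any line by limma on the calibrated scale. Unadjusted p-values under 0.05 with a lower value were found at 15 of 62 tested intervals in Kdm2a/b-JmjC, with 0 higher, where 20.3% of all promoters had one. In Kdm2a/b-CXXC there were 4 higher and 4 lower of 61, beside 3.58% higher and 1.07% lower of all promoters. In Kdm2a-CXXC there were 0 higher and 6 lower of 60, beside 8% lower, and in Kdm2b-CXXC 0 of 60 either way. The median log2 fold changes of the list were -0.31, -0.04, -0.21 and 0.07 in the order of lines above. In each line this was below the median of all promoters, which was -0.21, 0.087, -0.18 and 0.099. The median of the 9 lay above that of all promoters in each line but Kdm2a-CXXC.

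By the rule for naming, Otx2, a homeodomain factor of the forebrain and midbrain, was named in Kdm2a/b-CXXC at both of its intervals. At the first (NM_144841) the untreated mean was 54.5 ± 11.5 and the treated mean 27.8 ± 8.58 calibrated reads (SD, n = 4), which gives a log2 fold change of -0.97 ± 0.26 (SE, adjusted p = 0.282 by limma) with ranges of 40.5 to 67.5 and 17.0 to 37.2 that do not overlap, beside 0.597% of all promoters with every treated library below every untreated one. With TMM scaling the first interval had -1.06 (unadjusted p = 8.1e-06 by limma) and was among the 17 of 16413 promoters called by that fit. At the second (NM_001286481) the log2 fold change was -0.91 (adjusted p = 0.996 by limma), and -0.99 with TMM scaling. In Kdm2b-CXXC the first interval had a log2 fold change of -0.58 (adjusted p = 1 by limma), and -0.68 with TMM scaling (unadjusted p = 0.00030 by limma). En1 (-0.82, adjusted p = 0.068 by limma) and Irx5 (-0.62, adjusted p = 0.078 by limma), both homeodomain patterning factors, were named in Kdm2a/b-JmjC. Pou3f3 (-1.07, adjusted p = 0.579 by limma) and Gsx1 (-0.50, adjusted p = 0.581 by limma) were named in Kdm2a-CXXC, and Nkx2-9 (0.61, adjusted p = 1 by limma), a close relative of Nkx2-2, in Kdm2b-CXXC.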

How the data were processed

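Calibrated ATAC-seq libraries of 4 mESC lines (26 ATAC, with 26 matched genomic DNA inputs not used here, 52 samples) were assigned to groups from the sample labels. The authors mapped the reads to joined mm10 and dm6 genomes using Bowtie 2, discarded multiply mapped and duplicate reads, counted mouse reads over 400 bp promoter intervals and scaled them by spike-in size factors corrected with the genomic DNA. The deposited library columns are thus a signal, reads divided by a size factor (0.718 to 1.41), in 4 tables with 1 calibration each. The deposited tables also hold the authors' means, log2 fold changes, standard errors and p-values, none of which were used.

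Steps between values gave back whole reads for 100% of values (within 0.01 read), 1.49 to 3.03 M (M, 1000000) per library and a median of 58 to 108 per promoter. Duplicates were removed without molecular identifiers, so counting error covers counting alone. Within each line, log2(calibrated reads + 1) was tested with limma (3.58.1, mean-variance trend) after edgeR's filterByExpr (4.0.16) on the recovered reads, with Benjamini-Hochberg adjustment over all promoters tested; a call needed an adjusted p below 0.05 together with more than 1.4-fold change. This scale understates changes at low values. Differences between lines came from a single limma fit of 26 libraries. The p-values measure the spread between libraries described as biological replicates. The code was tested on simulated libraries carrying planted 2-fold changes. Alternatives were TMM and median-of-ratios scaling, pseudocounts of 0.5 and 5, no filter, DESeq2 (1.42.0) and edgeR on recovered reads, a replicate block, 1 fit over all libraries, and leaving out each library.

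Members were matched by symbol (99.1% of identifiers had one). The members and gene lists were chosen with earlier results of these data known. Genes of the wider list were named as the 2 smallest unadjusted p-values per line where none was called. Sequences, annotation and start sites are from RefSeq on GRCm38.p6.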

Additional observations from a re-analysis of the deposited data

How the results depend on the processing

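Calls at the 9 promoters were 0 under every alternative that gave them an adjusted p. DESeq2 in Kdm2a/b-JmjC gave none. The counts over all promoters in Kdm2a/b-JmjC were 13 by limma, 0 with TMM, 71 with a pseudocount of 5 and 114 with edgeR, and TMM scaling called 17 in Kdm2a/b-CXXC and 1 in Kdm2b-CXXC. Without 1 library the Kdm2a/b-JmjC count was 607 (tamoxifen replicate 1), 59 (untreated replicate 3), 3 (tamoxifen replicate 3) and 0 (untreated replicate 1 or 2). The count was 43 in Kdm2a-CXXC without tamoxifen replicate 3, and in Kdm2a/b-CXXC 5 and 8 without tamoxifen replicates 1 and 4. On TMM and median-of-ratios scaling the median of the 9 moved to 0.027 and 0.029 in Kdm2a/b-JmjC and to -0.089 and -0.087 in Kdm2a-CXXC. With either scaling it moved to 0.045 in Kdm2a/b-CXXC and to 0.13 in Kdm2b-CXXC. Estimates that changed sign on these scales (TMM, then median-of-ratios) were, in Kdm2a/b-JmjC, Sox1 (0.025, 0.027), Pax3 (0.027, 0.029), Neurog2 (0.063, 0.065), Nkx2-2 (0.14, 0.14) and Zic1 (0.068, 0.070). In Kdm2a/b-CXXC this held for Pax3 (-0.037, -0.036), in Kdm2a-CXXC for upstream Pax6 (0.049, 0.051) and Neurog1 (0.082, 0.084), and in Kdm2b-CXXC for Neurog1 (-0.039, -0.040). The difference between double lines changed sign with TMM for upstream Pax6 (-0.25), Pax3 (-0.066) and Olig2 (-0.30), and that between single lines for upstream Pax6 (-0.27), downstream Pax6 (-0.033) and Neurog1 (-0.13). Median-of-ratios scaling was not run for the differences between lines. These scales remove the median shift of all promoters by construction.

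Leaving out 1 library gave estimates from -0.30 to 0.17 for Nkx2-2 and -0.30 to 0.060 for Zic1 in Kdm2a/b-JmjC, -0.080 to 0.16 for Pax3, -0.034 to 0.27 for Neurog1 and -0.052 to 0.22 for Olig2 in Kdm2a/b-CXXC, -0.33 to 0.015 for upstream Pax6 and -0.25 to 0.0041 for Neurog1 in Kdm2a-CXXC, and -0.31 to 0.18 for upstream Pax6, -0.16 to 0.30 for Neurog1 and -0.055 to 0.51 for Olig2 in Kdm2b-CXXC. For the difference between double lines it gave -0.17 to 0.29 for upstream Pax6 and -0.17 to 0.11 for Olig2, and for that between single lines -0.18 to 0.31 for upstream Pax6, -0.067 to 0.40 for Neurog1 and -0.35 to 0.12 for Neurog2. Of the other estimates none changed sign when a library was left out. In the tamoxifen libraries the steps were 0.29 for downstream Pax6 over Neurog1, 0.46 for Zic1 over upstream Pax6 and 0.10 for Neurog2 over Nkx2-2. The median percentile of the 9 was 25.2 against CpG-rich promoters alone.

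Same-numbered untreated and treated libraries deviated together across promoters with r between -0.0090 and 0.073, none of the 13 pairs over 0.1. Such a correlation cannot see a shift shared by all promoters of a library, so it does not settle whether the numbers pair the samples. In replicates 1, 2 and 3 of Kdm2b-CXXC the calibrated totals were 2.96, 1.75 and 2.12 M untreated and 3.19, 1.98 and 2.11 M treated. In Kdm2a-CXXC they were 2.13, 2.30 and 2.51 M against 1.76, 2.04 and 2.33 M. In Kdm2a/b-JmjC and Kdm2a/b-CXXC the order of the totals differed between untreated and treated libraries. The main fits left the numbers unpaired. With a replicate block limma called 0 of the 9 in each line, and of all promoters 188 in Kdm2a-CXXC, 62 in Kdm2a/b-JmjC, 5 in Kdm2b-CXXC, 0 in Kdm2a/b-CXXC and 29 in the difference between double lines. At an unadjusted p under 0.05 the block gave 4 of the 9 in Kdm2b-CXXC, beside 1785 of 17930 promoters. The unpaired fit gave 0 and 120 there. In Kdm2a-CXXC the block gave 2 of the 9, beside 3895 of 17727 promoters, where the unpaired fit gave 1 and 1488. The block gave 4 of the 9 in each difference between lines, beside 3677 (double) and 2258 (single) of 19621. At 17.7 to 35.4 untreated calibrated reads, Nkx2-2 is the promoter whose depth limits precision most.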
